A study of Mus musculus with 4 samples.

Results

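The genes described are 10 members of the MYC, MAX, MXD and MYB transcription factor families: Myc, Mycn, Mycl, Max, Mxd3, Mxd4, Mxi1, Myb, Mybl1 and Mybl2. They are 10 of the 22180 genes for which the array platform lists a probe set with a single gene symbol, and each is represented by its brightest such probe set, the one with the highest mean over the arrays. Thus measured brightness on these arrays selected the probe sets, and the genes were chosen by their family with earlier GSK-J4 results of these data known, so their values are a description. Expression was measured on 4 Affymetrix arrays of embryoid bodies, the aggregates in which embryonic stem cells start to differentiate. The starting cells were of the mouse embryonic stem cell line R1. All embryoid bodies came from feeder-depleted cells and grew for 18 h without the self-renewal cytokine LIF. The arrays hold cells given GSK-J4 at 1.88 µM, GSK-J5 at 1.88 µM, DMSO, or EB medium with nothing added, with 1 array for each. GSK-J4 is an ester prodrug of an inhibitor of the KDM6 histone demethylases, and GSK-J5 is its isomer with little activity on these enzymes, given at matched dose and time. With no replicate of any treatment, no difference below carries a test or a p-value.

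MYC proteins bind DNA at E-box motifs as dimers with MAX and raise transcription of genes for ribosome production, metabolism and growth. MXD proteins, of which Mxi1 encodes a member, compete for MAX and repress through such sites. Myc and Mycn are both active in embryonic stem cells, where they maintain growth and self-renewal. The MYB family has 3 members with distinct uses: c-MYB (Myb) is best known from blood progenitors, A-MYB (Mybl1) from meiosis in the testis, and B-MYB (Mybl2) from dividing cells in general, embryonic stem cells included, where it joins the MuvB complex on late cell cycle promoters.

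Values are log2 expression levels after RMA, the authors' normalization, which gives the arrays a common distribution. Array medians over all probe sets lay between 6.63 and 6.65. Counted genes lay at least 1.5-fold, 0.585 on the log2 scale, beyond all 3 control arrays (GSK-J5, DMSO and EB medium), in either direction, provided that their mean reached the 40th percentile of genes, 6.59. The margin of a gene is its signed log2 distance in GSK-J4 from the closest control. All 10 members passed the filter, as did 13308 genes in all. Over those genes the SD of the GSK-J4 minus GSK-J5 difference was 0.289, and that of GSK-J5 minus DMSO was 0.133. The 3 controls differ in treatment and were not averaged.

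Of the 10 members, 2 were counted lower in GSK-J4, Myb and Myc, and 1 was counted higher, Mybl1. Over all 13308 genes the rule counted 0.842% lower and 2.21% higher. Members of a family did not move together: the lower Myb stood beside the higher Mybl1 and a Mybl2 whose 4 arrays lay within 0.05 of each other, and the lower Myc stood beside Mycn and Mycl, whose margins were under 0.2 in size.

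**Figure D1:**
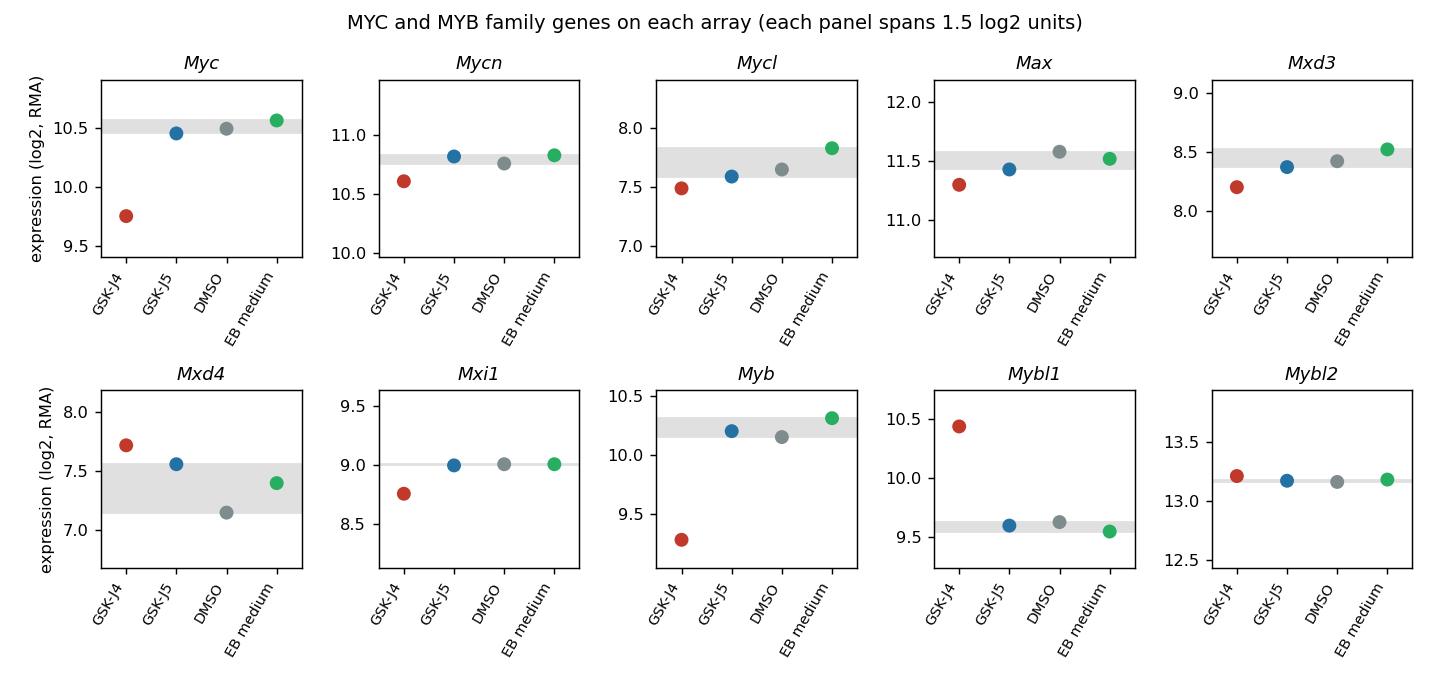
Log2 expression of each member (vertical axis, each panel spanning 1.5 log2 units) on the GSK-J4, GSK-J5, DMSO and EB medium arrays, 1 point per array, with the range of the 3 controls shaded. GSK-J4 lies clear of the shaded range downward for Myc (9.75) and Myb (9.28) and upward for Mybl1 (10.44).

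Myc, the founding member of the family and a driver of cell growth, read 9.75 in GSK-J4, against 10.45 in GSK-J5, 10.49 in DMSO and 10.56 in EB medium (probe set 17311846). The GSK-J4 array was the lowest and the controls lay together within 0.11. Its level in GSK-J4 was 1.62-fold below the nearest control, the GSK-J5 array, and the margin of −0.70 was the 63rd lowest of the 13308 genes. Against each control by itself the difference was −0.70 for GSK-J5, −0.74 for DMSO and −0.81 for EB medium.

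Mycn, the paralogue that can stand in for Myc in stem cells, read 10.61 in GSK-J4, against 10.82 in GSK-J5, 10.76 in DMSO and 10.83 in EB medium. It was below all controls, by 0.15 to the nearest, and was not counted. Mycl, the paralogue first found amplified in human lung cancer, read 7.49 in GSK-J4, against 7.59 in GSK-J5, 7.65 in DMSO and 7.83 in EB medium. Its margin of −0.10 was smaller than the range of its controls, 0.24.

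Max, the shared dimer partner without which MYC does not bind E-boxes, read 11.30 in GSK-J4, against 11.43 in GSK-J5, 11.58 in DMSO and 11.52 in EB medium. The GSK-J4 array was the lowest, but its margin of −0.13 was within the 0.15 that the controls spanned. Among the MXD repressors, Mxd3, which is expressed in dividing cells, read 8.20 in GSK-J4, against 8.37 in GSK-J5, 8.42 in DMSO and 8.52 in EB medium, a margin of −0.17. Mxi1 read 8.76 in GSK-J4, against 9.0 in GSK-J5, 9.01 in DMSO and 9.01 in EB medium. Its controls were within 0.01 of each other on this probe set, so the margin of −0.24 stood clear of them although it was below 1.5-fold. The second probe set of Mxi1 read 7.94 in GSK-J4, against 8.27 in GSK-J5, 8.11 in DMSO and 8.46 in EB medium, again lowest in GSK-J4, with controls that spread far more.

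Mxd4, a repressor associated with cells that leave the cycle, was the only one of the 3 MXD genes among the members to lie above all controls. It read 7.72 in GSK-J4, against 7.56 in GSK-J5, 7.15 in DMSO and 7.40 in EB medium. The controls spanned 0.41, more than the margin of 0.16, and GSK-J5 was itself 0.41 above DMSO, so most of the difference from DMSO was present with the weakly active isomer too. No member of the MAX and MXD groups was counted in either direction.

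Counted without a size limit, 7 of the 10 members lay below all 3 controls in GSK-J4 and 3 lay above. Over all genes 35.5% lay below all controls and 38.0% above. For 5 members, Myc, Mycn, Mycl, Mxd3 and Myb, EB medium was the highest of the 4 arrays, which held for 21.3% of genes.

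Myb had the lowest margin of the 10 members. Its brightest probe set, 17239664, read 9.28 in GSK-J4, against 10.20 in GSK-J5, 10.15 in DMSO and 10.31 in EB medium. The level in GSK-J4 was 1.83-fold below the nearest control, DMSO, and the margin of −0.87 ranked as the 29th lowest of the 13308 genes. The controls spanned 0.16. A second, dimmer Myb probe set, 17231999, read 7.19 in GSK-J4, against 7.44 in GSK-J5, 7.51 in DMSO and 7.43 in EB medium. It too was lowest in GSK-J4, but its margin of −0.24 did not reach 1.5-fold, so the size of the Myb difference depends on the probe set. With the median of both probe sets the margin was −0.585, at the threshold.

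Mybl1, the A-MYB gene, had the opposite direction. It read 10.44 in GSK-J4, against 9.60 in GSK-J5, 9.63 in DMSO and 9.55 in EB medium (probe set 17221158). The GSK-J4 level was 1.75-fold above the nearest control, with controls within 0.08 of each other, and the margin of 0.81 was the 136th highest. Mybl2, the B-MYB gene, read 13.21 in GSK-J4, against 13.17 in GSK-J5, 13.16 in DMSO and 13.18 in EB medium. Its second probe set read 10.18 in GSK-J4, against 10.15 in GSK-J5, 10.01 in DMSO and 10.07 in EB medium, and both probe sets had a margin of 0.03.

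The promoters of Myb, Mybl2 and Mycn are shown because all 3 hold an E2F-type motif. E2F factors control genes of the cell cycle. The sequences are the 250 bases before the gene start in RefSeq (GRCm38.p6), read 5′ to 3′ on the gene's strand, with the motif TTGGCGNGA in capitals. Myb lies on the minus strand at chr10:21160985-21161234, Mybl2 on the plus strand at chr2:163054385-163054634 and Mycn on the minus strand at chr12:12941837-12942086.
Myb: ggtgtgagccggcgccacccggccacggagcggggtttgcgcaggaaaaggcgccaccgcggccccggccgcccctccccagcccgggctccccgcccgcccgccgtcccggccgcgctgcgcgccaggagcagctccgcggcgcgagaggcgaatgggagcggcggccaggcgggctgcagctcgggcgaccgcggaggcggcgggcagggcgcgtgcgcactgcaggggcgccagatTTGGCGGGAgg
Mybl2: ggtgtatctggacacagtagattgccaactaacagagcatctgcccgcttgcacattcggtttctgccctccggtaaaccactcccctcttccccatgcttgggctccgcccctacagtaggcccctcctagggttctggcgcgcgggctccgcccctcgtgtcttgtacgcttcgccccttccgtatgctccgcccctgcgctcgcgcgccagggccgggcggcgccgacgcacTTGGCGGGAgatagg
Mycn: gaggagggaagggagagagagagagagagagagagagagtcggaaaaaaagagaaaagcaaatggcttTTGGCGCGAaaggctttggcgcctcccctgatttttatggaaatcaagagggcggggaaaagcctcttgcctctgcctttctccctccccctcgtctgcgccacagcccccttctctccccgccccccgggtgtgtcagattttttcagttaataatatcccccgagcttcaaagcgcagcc

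Positions are counted back from the start site, −1 being the base before it. The motif begins at −11 in Myb, at −15 in Mybl2 and at −182 in Mycn. In Myb and Mybl2 it has the letters TTGGCGGGA, and in Mycn TTGGCGCGA. On either strand it occurs in 146 of the 32851 promoter windows (0.444%). It was picked after these sequences were read, so its presence in 3 members is a description. The GC content of the window was 81.2% in Myb, 65.6% in Mybl2 and 54.8% in Mycn. The relation of the motif to expression was not tested.

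RefSeq windows were matched for 8 of the 10 members, in 10 windows since Mxi1 has 3, and none was matched for Myc or Mybl1. A search of both strands covered the E-box CACGTG, which stood in Mxd4 alone (first base at −219) and in 6.02% of all windows. The E2F motif GGCGGGAA, which shares letters with TTGGCGNGA, stood in Mxd3 (first base at −137), against 1.86% of windows. The TCF/LEF motif CTTTGA and the cell cycle element TTTGAA, overlapping each other, both stood in Mycn, and 13.8% and 15.99% of windows hold them. The MYB element AACNG was in at least 1 window of 7 members and in 74.2% of all windows. CCAAT was in Mxd4 (33.8% of windows), and the amino acid response motif TGATGNAA was in no member's window (3.45%). A match says only that these letters are present.

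Within-family contrasts subtract the difference of a gene's paralogue from its own, which avoids setting levels of different probe sets against each other. Myb minus Mybl1 was −1.76 against GSK-J5, −1.68 against DMSO and −1.92 against EB medium, and no larger than 0.24 in size between any pair of controls. Myb minus Mybl2 was −0.96, −0.92 and −1.06 in that order of controls, and Mybl1 minus Mybl2 was 0.80, 0.76 and 0.86. On the brightest probe sets these MYB contrasts were far outside what the controls showed among themselves, at most 0.14 and 0.10. The dimmer Myb probe set moved less (margin −0.24). With the median over probe sets Myb minus Mybl2 was −0.62 against GSK-J5. Myc minus Mycn was −0.49 against GSK-J5 and −0.59 against both DMSO and EB medium, with at most 0.10 between controls. Myc minus Mycl was −0.60, −0.58 and −0.47, with at most 0.13 between controls.

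Other pairs were less distinct. Mycn minus Mycl ran from −0.11 to 0.12 depending on the control, inside the 0.23 found between controls. Mxd3 minus Mxi1 ran from −0.07 to 0.07. Mxd4 minus Mxi1 was 0.40, 0.82 and 0.57 and Mxd3 minus Mxd4 was −0.33, −0.79 and −0.64, but the same contrasts reached 0.42 and 0.46 between GSK-J5 and DMSO, because Mxd4 differed between those arrays.

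**Figure D2:**
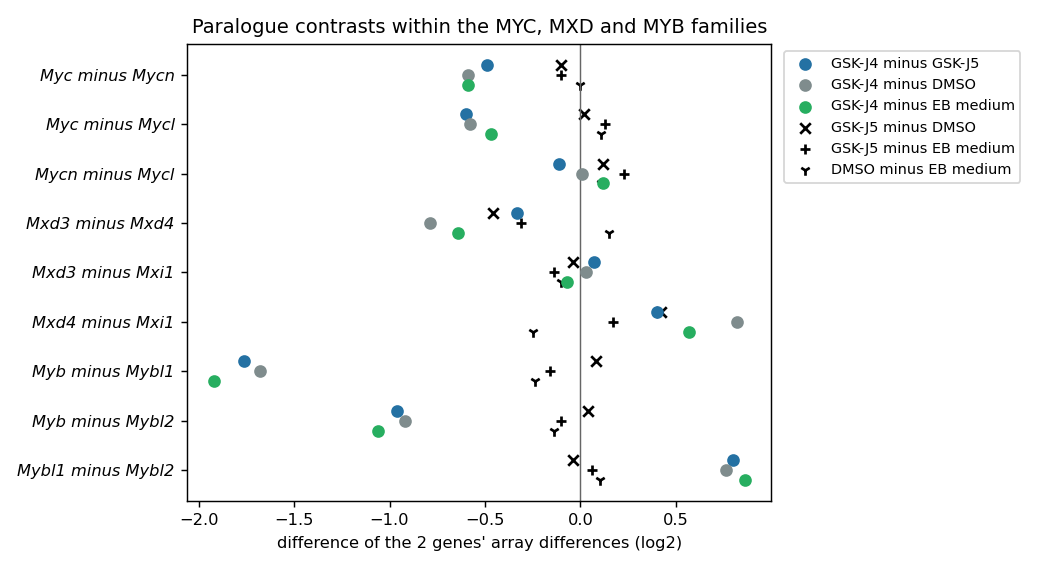
Contrasts between paralogues (rows): the difference of their array differences in log2 units, with GSK-J4 minus each control as coloured points and control pairs as black marks. The MYB contrasts and those of Myc lie clear of the black marks, while Mycn minus Mycl and Mxd3 minus Mxi1 lie near 0.

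Compared with its isomer GSK-J5 alone, which matched it in dose and time, GSK-J4 differed by 1.5-fold in 3 of 10 members, with Mybl1 higher (0.84) and Myb (−0.92) and Myc (−0.70) lower. Over all genes 3.28% were higher and 1.39% lower by that size. The 7 other members differed from GSK-J5 by between −0.24 (Mxi1) and 0.16 (Mxd4). Against DMSO the background was 3.89% higher and 1.57% lower, and against EB medium 2.96% and 1.68%, and the members past 1.5-fold were again Mybl1, Myb and Myc. These comparisons share the GSK-J4 array and are not independent.

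Between GSK-J5 and DMSO none of the 10 members was 1.5-fold apart, against 0.0526% of genes higher and 0.12% lower. At such low shares this is no trait of the family. For Myc the GSK-J5 minus DMSO difference was −0.04, for Myb 0.05 and for Mybl1 −0.03. Mxd4, at 0.41, was the farthest, beside an all-gene SD of 0.133 for this difference, followed by Max at −0.15. Between DMSO and EB medium, again with 0 members past 1.5-fold (0.12% of genes higher and 0.0376% lower), Mxd4 at −0.25 and Mycl at −0.18 were the farthest.

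**Figure D3:**
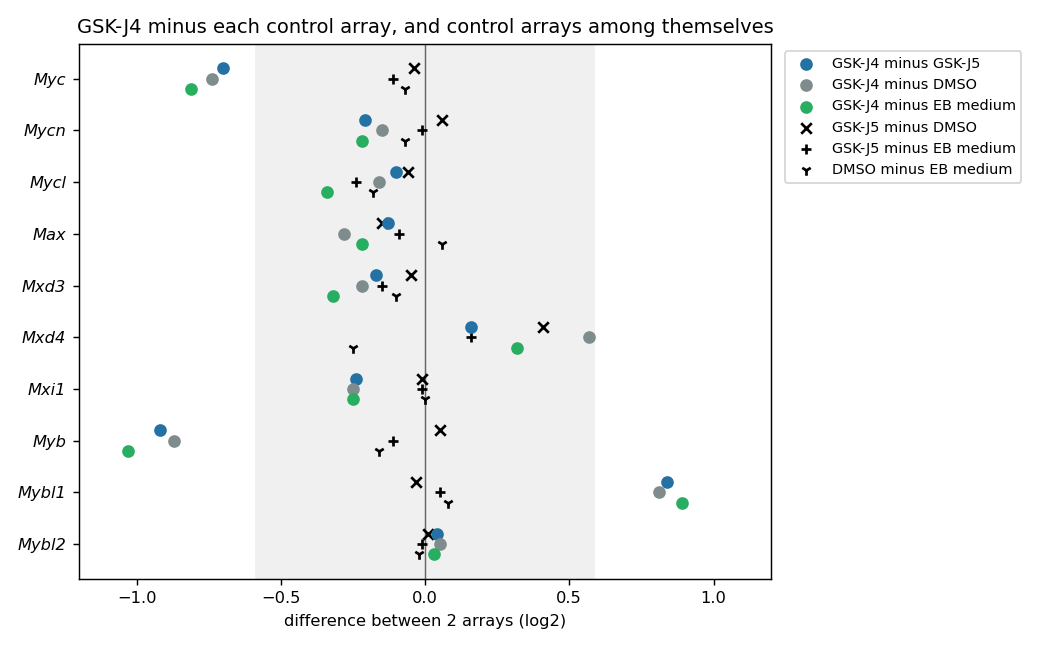
Differences between arrays in log2 units for each member (rows): coloured points are GSK-J4 minus GSK-J5, DMSO or EB medium, black marks are differences between controls, and the shaded band is within 1.5-fold. Only Myc, Myb and Mybl1 have all 3 coloured points outside the band, and for Mxd4 the GSK-J5 minus DMSO mark (0.41) lies between coloured points.

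The wider MAX network showed no counted gene, where 2.21% of all genes were counted higher and 0.842% lower. At those shares a short list would hold few or none. All 12 genes of a list of further partners and paralogues were measured and 11 passed the filter. Of the 11, 5 lay above all controls and 4 below, where 38.0% and 35.5% of all genes did. GSK-J4 minus GSK-J5 had a median of −0.005, beside −0.02 over all 22180 genes. Bmyc, a MYC relative without the DNA-binding domain, read 10.99 in GSK-J4, against 10.65 in GSK-J5, 10.65 in DMSO and 10.69 in EB medium. Mxd1, the MXD member absent from the 10, read 9.43 in GSK-J4, against 9.09 in GSK-J5, 9.14 in DMSO and 9.15 in EB medium. Both were above all controls by less than 1.5-fold. Of 20 measured MYC cofactors and turnover genes, 0 were counted, beside the same all-gene shares, and the median was −0.03. Of the 20, 5 lay above all controls and 11 below. Fbxw7, the ubiquitin ligase subunit that targets MYC for degradation, read 9.19 in GSK-J4, against 8.73 in GSK-J5, 8.75 in DMSO and 8.85 in EB medium. Ruvbl1, an ATPase of MYC-bound chromatin complexes, read 10.91 in GSK-J4, against 11.38, 11.39 and 11.30 in the same controls.

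Known MYC-activated genes differed by small amounts. Of 34 measured genes of ribosome biogenesis and the nucleolus 0 were counted, where 2.21% of all genes were counted higher and 0.842% lower. Margins ran from −0.26 (Nip7) to 0.17 (Utp20, named after its value was seen). Of the 34, 20 lay below all controls and 7 above, against the same 35.5% and 38.0% of all genes, and the median was −0.08, beside 0.02 for GSK-J5 minus DMSO. Bop1, a ribosome assembly factor, read 11.57 in GSK-J4, against 11.84 in GSK-J5, 11.75 in DMSO and 11.79 in EB medium.

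Among 35 measured MYC-activated genes of metabolism and growth, 1 was counted lower and 0 higher, where 0.842% and 2.21% of all genes were. Of the 35, 25 lay below all controls and 7 above, where 35.5% and 38.0% of all genes did. The median was −0.13, beside 0.00 for GSK-J5 minus DMSO. The counted gene was Ccnd2, which encodes cyclin D2. It read 9.82 in GSK-J4, against 10.72 in GSK-J5, 10.73 in DMSO and 10.86 in EB medium, a margin of −0.90. Named after their values were seen, Ccnd1, the cyclin D1 gene, had a margin of −0.52 and Ldha, lactate dehydrogenase A, −0.51, both short of 1.5-fold. At the other end were Mthfd2 (margin 0.56) and Shmt2 (0.37), enzymes of mitochondrial folate metabolism, and the amino acid transporter gene Slc7a5 (0.23), also named afterwards. These 3 are known as ATF4 targets as well as MYC targets, and the part of either factor in their values was not tested. Cad and Tert, named afterwards too, had margins of 0.20.

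Of 11 measured genes that MYC represses with MIZ1, 9 passed the filter. Of those 9, 4 lay above all controls and 4 below, where 38.0% and 35.5% of all genes did. By the 1.5-fold rule 1 was counted higher, where 2.21% of all genes were. That gene was Cdkn1a, the p21 cell cycle inhibitor and also a p53 target. It read 11.83 in GSK-J4, against 10.76 in GSK-J5, 10.75 in DMSO and 10.80 in EB medium. The median of the 11 was −0.04, so Cdkn1a stood apart from its list. Cdkn2b, the p15 gene best known for this repression and named after its value was seen, read 8.34 in GSK-J4, against 8.07 in GSK-J5, 8.25 in DMSO and 7.99 in EB medium, and its margin of 0.09 was smaller than the range of its controls.

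B-MYB works with the MuvB core, which also forms the repressive DREAM complex with a pocket protein in place of B-MYB. All 12 listed subunits passed the filter, and 1 was counted higher and 0 lower, where 2.21% and 0.842% of all genes were. Of the 12, 6 lay below all controls and 3 above, where 35.5% and 38.0% of all genes did. The median was −0.05. The counted gene was Rbl2, which encodes the pocket protein p130 of DREAM. It read 9.48 in GSK-J4, against 8.63 in GSK-J5, 8.50 in DMSO and 8.62 in EB medium, a margin of 0.85. The MuvB subunit genes Lin9, Lin37, Lin52, Lin54 and Rbbp4, named after their values were seen, had margins between −0.05 and 0.15.

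Late cell cycle targets of B-MYB and MuvB were lower by small amounts. Of 25 measured, 22 lay below all 3 controls and 2 above, where 35.5% and 38.0% of all genes did. By the 1.5-fold rule 0 were counted, where 0.842% of all genes were counted lower and 2.21% higher. The median was −0.16 against GSK-J5, −0.17 against DMSO and −0.17 against EB medium, beside 0.00 for GSK-J5 minus DMSO. Plk1, a mitotic kinase, read 12.11 in GSK-J4, against 12.61 in GSK-J5, 12.63 in DMSO and 12.58 in EB medium. Aurkb, the kinase of the chromosomal passenger complex, read 11.43 in GSK-J4, against 11.83, 11.73 and 11.80 in the same controls. Mybl2 itself was level on these arrays.

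Germ cell genes, among them targets of A-MYB in the testis, had a positive median. Of 17 measured, 11 lay above all controls and 2 below. Of the 12 that passed the filter 10 lay above and 1 below, where 38.0% and 35.5% of all genes did, and 1 was counted higher, where 2.21% were. The median over the 17 was 0.24 against GSK-J5, 0.26 against DMSO and 0.22 against EB medium, and 0.01 for GSK-J5 minus DMSO. Smc1b, a meiotic cohesin subunit, read 8.81 in GSK-J4, against 8.13 in GSK-J5, 8.13 in DMSO and 8.16 in EB medium, and was the counted gene. After quantile normalization 0 genes of the list were counted. Named after its values were seen, Mov10l1, a helicase of the piRNA pathway and a known A-MYB target in mouse testis, read 9.27 in GSK-J4, against 8.73, 8.66 and 8.82. Other piRNA pathway genes of the list, also named afterwards, were mixed. Piwil2, Ddx4 and Mael lay above all controls, with margins of 0.33, 0.22 and 0.13. The margins of Piwil1 and Piwil4 were −0.06, and Tdrd1 and Tdrd9 lay within the range of their controls. Piwil4 and Tdrd9 were below the filter. Sycp1, also named afterwards, was 1.06 above GSK-J5 but 0.38 above DMSO, because the GSK-J5 array was the low one.

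Genes of c-MYB and blood progenitors did not share the lower level of Myb as a list, but most were dim. Their mean level was 6.94 in GSK-J4 and 6.93 to 7.06 in the controls, near the filter level of 6.59. A lower level of such genes would be hard to see. Of 17 measured, 12 passed the filter and 0 were counted, where 0.842% of all genes were counted lower and 2.21% higher. Of those 12, 5 lay below all controls and 3 above, where 35.5% and 38.0% of all genes did. The median over the 17 was −0.09 against GSK-J5, −0.07 against DMSO and 0.10 against EB medium. Kit, the stem cell factor receptor and a c-MYB target in blood, read 9.61 in GSK-J4, against 10.07 in GSK-J5, 9.84 in DMSO and 9.99 in EB medium. Gfi1b, a repressor of blood lineages, read 6.84 in GSK-J4, against 7.43, 7.42 and 7.27.

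**Figure D4:**
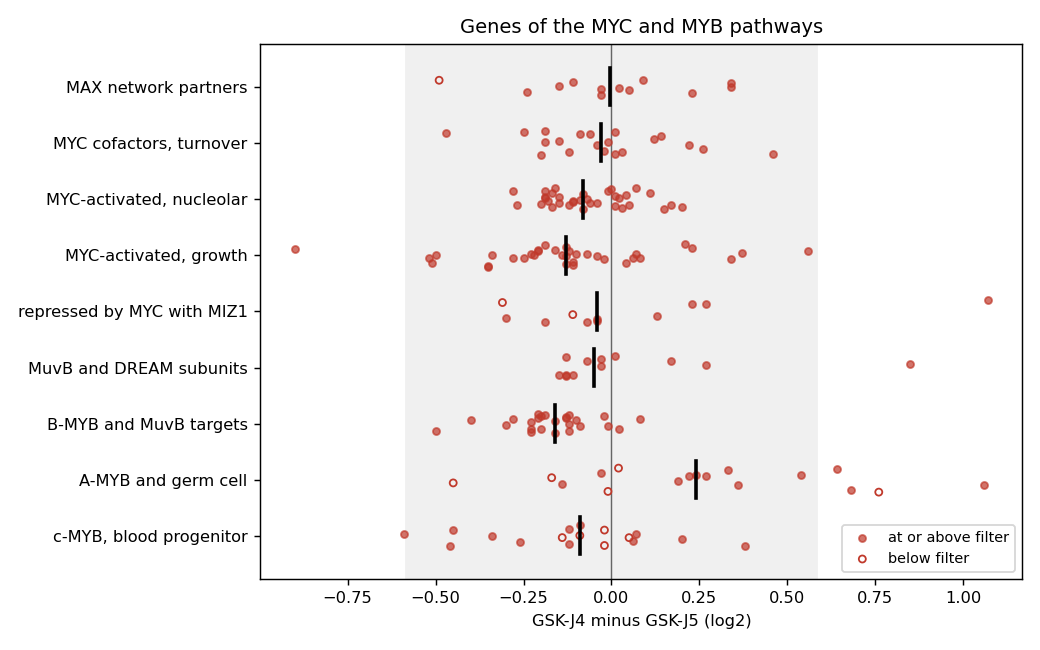
GSK-J4 minus GSK-J5 in log2 units (horizontal axis) for each measured gene of 9 pathway lists (rows), with filled points at or above the filter level, open points below it, black bars at the list medians and the band within 1.5-fold shaded. The B-MYB target points gather left of 0 (median −0.16) and the A-MYB and germ cell points right of it (0.24), while Ccnd2, Cdkn1a and Rbl2 lie far from their lists.

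Markers of the cells present were read beside these results. Of the 12 pluripotent and epiblast markers 11 passed the filter and Dppa5a did not, with Nanog at 13.05 in GSK-J4 and 13.11 to 13.20 in the controls, and Sox2 at 13.02 in GSK-J4 and 12.93 to 13.02 in the controls. Pou5f1 stood at 9.69 in GSK-J4 and 9.74 to 9.81 in the controls. Of the 12, 8 lay below all controls and 2 above. Over all genes that passed the filter 35.5% lay below and 38.0% above. The marker counts of this paragraph also include genes below the filter. Fgf5 and Dnmt3b were counted lower, 2 of the 11 that passed, where 0.842% of all genes were. The summed level of the list, the sum of values taken off the log scale, was 44850 in GSK-J4 and 49788 to 50061 in the controls. Most of that gap lay in Dnmt3b and Tdgf1. Tdgf1, named after its values were seen, stood at 12.33 in GSK-J4 and 12.69 to 12.71 in the controls. Of 14 fibroblast markers 9 lay below all controls and 0 above, with a summed level of 4406 in GSK-J4 and 4680 to 4739 in the controls. Of the 14, 8 passed the filter. Vim alone, named after its values were seen, made up most of the sum. It stood at 11.55 in GSK-J4 and 11.59 to 11.61 in the controls. Of 10 measured blood and endothelial markers 4 lay above and 2 below, with sums of 3351 in GSK-J4 and 2677 to 2755 in the controls. Pecam1, at 11.17 in GSK-J4 and 10.72 to 10.80 in the controls, was the brightest of them, and without it the sums were 1047 in GSK-J4 and 973 to 990 in the controls. Of the 10, 5 passed the filter: Pecam1, Cd3e, Spi1, Itgam and Tal1. The margins of Cd3e, Spi1 and Itgam were 0.28, 0.17 and 0.13, and that of Tal1 was −0.08. Ptprc, Gata1, Hbb-bh1, Kdr and Cdh5 were below the filter, Ptprc at 4.49 in GSK-J4 and 4.37 to 4.51 in the controls. Of 7 germ cell markers 5 lay above and 1 below (5550 in GSK-J4 and 4827 to 4894 in the controls). Ddx4, Dazl, Stra8, Mael and Piwil2 among them also belong to the germ cell list above, so the 2 counts are not independent. Of 7 neural markers 0 lay above and 4 below (2859 in GSK-J4 and 3110 to 3225 in the controls). Most of that sum was Tubb3, named after its values were seen, at 10.76 in GSK-J4 and 10.85 to 10.92 in the controls. The part of these shifts in the member values was not tested. In whole embryoid bodies fewer cells of a type and less RNA per cell cannot be told apart. Of 6 genes for KDM6 and PRC2 proteins 0 were counted (median 0.02), where 2.21% of all genes were counted higher and 0.842% lower. The margins of the demethylase genes Kdm6a, Kdm6b and Uty were 0.01, 0.38 and 0.07.

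For each counted member the 3 genes above the filter with the most similar profile were found by Euclidean distance over the 4 arrays, after each gene's mean was subtracted. For Myc they were Camkv (distance 0.024), Ddc (0.033), which encodes aromatic amino acid decarboxylase, and Plcd1 (0.059), a phospholipase C gene. For Myb they were Fgf15 (0.042), a secreted growth factor gene at 10.54 in GSK-J4 and 11.44 to 11.55 in the controls, then Ccnd2 (0.043), described above, and Prtg (0.065). For Mybl1 they were the transcript A730017L22Rik (0.030), Wls (0.051), which encodes a carrier for WNT secretion, and Ppp1r15a (0.057), the GADD34 phosphatase subunit gene, at 9.64 in GSK-J4 and 8.83 to 8.87 in the controls. With 4 arrays these distances rest mainly on the GSK-J4 value.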

How the data were processed

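RNA of embryoid bodies was hybridised to 4 arrays, 1 for each treatment. The deposited values are log2 expression levels. Per the submitters' processing notes, the authors ran RMA (Expression Console 1.2.1.20, Affymetrix). Base 2 was inferred from the range, 2.20 to 14.48, since no source used here states it, and every fold assumes it. Arrays were grouped by their treatment label. No scanner files were used, so background and saturation were not examined. Precision is limited by the number of arrays.

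Names came from the platform annotation: 23521 of 41345 had a single symbol, giving 22180 genes, of which 1082 have several probe sets. The brightest probe set stood for a gene. The 10 members have 13 probe sets, and 0 of their symbols differed from RefSeq. Counting rules were checked on simulated data. The planted differences were larger than any member's margin, so the check does not cover differences of the members' size. Python 3.11.15, numpy 2.4.6, pandas 2.3.3 and statsmodels 0.14.6 were used.

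The members, lists and rules were chosen with earlier results of these data known. Named were all members and, from each list, up to 3 counted genes per direction by margin, or, where none was counted, the 2 above the filter farthest from GSK-J5, and the KDM6 genes and the 3 nearest profiles of each counted member. Other genes are said to be named afterwards. Lists can share genes. Alternatives were other filters, folds and scalings, the median over probe sets, leaving out a control and another reference array.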

Additional observations from a re-analysis of the deposited data

How the results depend on the processing

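Mybl1 was counted higher and Myc and Myb lower under median centring, loess (span 0.3) and a repeat of quantile normalization. Median centring could change little, since the array medians were nearly equal. The median over probe sets and the 60th percentile as filter counted the same members. So did leaving out the filter, the smaller fold threshold and leaving out each control array in turn. These last settings can only keep or add counted genes, so they do not test the counts. A 2-fold rule counted 0 members higher and 0 lower, since no member's margin reached that size. Over all genes it counted 76 higher and 14 lower. Margins ran over these settings from −0.76 to −0.70 for Myc, from −0.95 to −0.585 for Myb and from 0.76 to 0.84 for Mybl1. Without the GSK-J5 array the margin of Mxd4 was 0.32.

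Paralogue contrasts kept their sign under every alternative run except Mycn minus Mycl and Mxd3 minus Mxi1, which were 0.12 and −0.07 with EB medium as the reference, and of which the first was 0.01 with DMSO. With DMSO as the reference Mxd3 minus Mxd4 was −0.79 and Mxd4 minus Mxi1 was 0.82, and with EB medium they were −0.64 and 0.57. Myb minus Mybl1 was −1.92 against EB medium. With the median over probe sets it was −1.425, and Myb minus Mybl2 was −0.62. The c-MYB list median was 0.10 against EB medium. After quantile normalization 0 germ cell genes were counted, and 2 were without the filter or without the DMSO array. Growth and metabolism genes counted lower were 2 after quantile normalization and without the GSK-J5 array, where 1 was also counted higher. With the smaller fold threshold (0.322 on the log2 scale) 5 germ cell genes were counted higher, 4 growth genes lower and 2 higher, and 2 c-MYB genes lower and 1 higher. A 2-fold rule no longer counted Ccnd2, Rbl2 or Smc1b. The all-gene median of GSK-J4 minus GSK-J5 was 0.00 after median centring, −0.04 after quantile normalization and −0.01 after loess.

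No paired analysis was possible because each treatment has 1 array. Whether any difference would repeat in a second culture cannot be read from these arrays.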
